A study of Mus musculus with 24 samples.

Results

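The slow fibre and ventricular contractile programme was followed across 24 arrays through 10 genes: Myh7, Myl2, Myl3, Tnnt1, Tnni1, Tnnc1, Tpm3, Csrp3, Myoz2 and Mb. Their probe sets were chosen by name alone, as those for which the platform annotation gives exactly 1 symbol and that symbol is one of the 10. This gave 17 of the 45037 probe sets that are not controls and 10 of 18193 genes: 5 probe sets for Tpm3, 3 for Myl3, 2 for Mb and 1 for each of the other 7 genes. The gastrocnemius, a calf muscle, and the heart of 12 male mice aged 2 months were each measured once on an Affymetrix mouse array. Each tissue held 3 wild type mice, 3 Cmah KO mice, 3 mdx mice and 3 mice with both defects (Cmah KO, mdx), and the comparisons ask what the loss of either gene changes in muscle. Cmah KO mice carry a human-like inactivating mutation and cannot make the sialic acid Neu5Gc. The mdx mouse lacks dystrophin and models Duchenne muscular dystrophy. Wild type and Cmah KO mice carry the strain label C57BL/6J and both dystrophin-deficient groups C57BL6/10J, so that dystrophin loss and strain cannot be told apart. All values are log2 intensities, and a gene with several probe sets is read at the brightest one unless stated otherwise.

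Slow muscle fibres and the ventricle share much of their contractile machinery. Myh7 encodes the slow, or beta, myosin heavy chain, Myl2 and Myl3 its regulatory and essential light chains, and Tnnc1 the calcium-binding troponin C, and all of these are used by both kinds of muscle. Tnnt1 and Tnni1 encode the troponin T and troponin I of slow skeletal fibres, whereas the adult heart uses Tnnt2 and Tnni3 instead. The adult mouse ventricle relies mainly on the alpha heavy chain Myh6 and keeps little Myh7. Tpm3 gives the slow skeletal tropomyosin from one promoter and cytoplasmic tropomyosins from another. Csrp3 (muscle LIM protein) and Myoz2 (calsarcin-1) sit at the Z disc, and Mb encodes the oxygen-binding protein myoglobin of oxidative muscle. The mouse gastrocnemius is mostly fast, with slow fibres as a minority.

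Of the 12 animals 4, 1 of each genotype, stood apart in both tissues by a larger log2 excess of the 3′ over the 5′ control probe set of Gapdh, a measure of RNA integrity and amplification. They read 0.76 to 1.02 in gastrocnemius, against 0.36 to 0.71 in the other 8 animals, and 0.98 to 1.60 in heart, against 0.44 to 0.54 in 6 others. The hearts of Cmah KO replicate 3 and of Cmah KO mdx replicate 2 deviated further, with Gapdh differences of 4.29 and 4.43 and mean correlations of 0.543 and 0.837 with the other hearts, where the other 10 hearts had 0.909 to 0.925. Both sets of arrays were picked after the data were seen, and the results that change with them are given with and without them. Dmd was lower in both dystrophin-deficient gastrocnemius groups (means of 8.37 and 8.18) than in wild type and Cmah KO (10.16 and 10.15). In heart it read 9.89 to 10.07 in wild type, 8.44 to 9.12 in mdx and 8.16 to 8.81 in Cmah KO mdx, but 8.01 in the deviating library labelled Cmah KO replicate 3, below every mdx heart, so that this library's Dmd value goes against its label. The Cmah probe set read 7.38, 6.36, 7.21 and 7.16 in wild type, Cmah KO, mdx and Cmah KO mdx gastrocnemius, with overlapping ranges between mdx and Cmah KO mdx, and where it lies relative to the mutation was not determined, so it does not check the labels. Of 13 cardiac markers, all passed the test as higher in heart. All 10 skeletal muscle markers passed as lower there.

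The stretches of DNA just before the start sites are shown for the members whose tissue pattern is described next, because genes of this programme are classically controlled there by TEAD factors at the MCAT element, by MEF2, by serum response factor at the CArG box and by GATA factors. The sequences are RefSeq start windows on GRCm38.p6, each the 250 bases before the start and read 5′ to 3′ on the gene's strand. Windows were found for all 10 genes, 17 in total. Capitals mark MCAT (CATTCC), the MEF2 and CArG consensus, TATAAA and the GATA element (AGATAA or TGATAA), searched on both strands, and the marked matches do not overlap each other.
Myh7 first start (chr14:54994627-54994876, minus strand; MCAT): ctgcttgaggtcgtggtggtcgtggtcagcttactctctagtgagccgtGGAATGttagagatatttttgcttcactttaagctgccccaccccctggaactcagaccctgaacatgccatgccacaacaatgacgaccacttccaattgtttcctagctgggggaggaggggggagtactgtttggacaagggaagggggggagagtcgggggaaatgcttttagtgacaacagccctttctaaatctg
Tnnc1 (chr14:31208062-31208311, plus strand; MCAT): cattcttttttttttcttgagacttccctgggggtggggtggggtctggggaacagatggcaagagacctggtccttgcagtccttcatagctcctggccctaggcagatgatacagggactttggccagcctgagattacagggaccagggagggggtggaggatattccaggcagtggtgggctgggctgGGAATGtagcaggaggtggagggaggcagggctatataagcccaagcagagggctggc
Myl3 (chr9:110763428-110763677, plus strand; MCAT and CArG): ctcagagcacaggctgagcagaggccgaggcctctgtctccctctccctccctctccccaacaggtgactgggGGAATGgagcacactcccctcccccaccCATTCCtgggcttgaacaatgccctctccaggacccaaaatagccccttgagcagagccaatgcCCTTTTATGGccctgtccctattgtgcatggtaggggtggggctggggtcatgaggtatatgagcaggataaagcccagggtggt
Myoz2 (chr3:123034988-123035237, minus strand; MEF2): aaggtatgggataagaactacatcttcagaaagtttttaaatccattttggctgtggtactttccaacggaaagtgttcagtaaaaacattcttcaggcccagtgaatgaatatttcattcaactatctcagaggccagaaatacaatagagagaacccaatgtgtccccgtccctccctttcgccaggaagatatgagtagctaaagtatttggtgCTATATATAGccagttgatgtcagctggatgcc
Tnnt1 (chr7:4515976-4516225, minus strand; TATAAA): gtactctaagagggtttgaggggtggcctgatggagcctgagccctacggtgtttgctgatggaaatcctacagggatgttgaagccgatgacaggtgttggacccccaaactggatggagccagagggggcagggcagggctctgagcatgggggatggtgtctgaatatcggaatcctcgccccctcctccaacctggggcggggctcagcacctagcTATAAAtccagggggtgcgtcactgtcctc
Tpm3 first start (chr3:90072401-90072650, plus strand; GATA element): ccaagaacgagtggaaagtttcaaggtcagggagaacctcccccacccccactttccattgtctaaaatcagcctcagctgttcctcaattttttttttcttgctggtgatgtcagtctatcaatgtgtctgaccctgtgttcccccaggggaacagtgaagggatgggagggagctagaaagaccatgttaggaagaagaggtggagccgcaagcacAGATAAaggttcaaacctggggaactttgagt
Tpm3 second start (chr3:90079271-90079520, plus strand; no capitals): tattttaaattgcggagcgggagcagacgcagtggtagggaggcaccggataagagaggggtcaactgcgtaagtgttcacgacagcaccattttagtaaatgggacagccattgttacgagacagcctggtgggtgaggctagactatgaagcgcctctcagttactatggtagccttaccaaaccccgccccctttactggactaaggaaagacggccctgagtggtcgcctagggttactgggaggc

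MCAT was found in 3 of the 17 windows, at 201 bases before the first Myh7 start, at 58 bases before the Tnnc1 start and at 177 and 149 bases before the Myl3 start, and in 12.6% of all 32851 windows. The MEF2 match lay 33 bases before the Myoz2 start, a motif held by 1.69% of all windows. The CArG match lay 85 bases before the Myl3 start, against 1.47% of windows. TATAAA stood 30 bases before the Tnnt1 start and also in 1 Myl2 window, against 12.4% of windows, and a GATA element stood 32 bases before the first Tpm3 start and in 1 Myl2 window, against 16.6%. An E box (CANNTG, not marked above) was in all 17 windows and in 66.2% of all windows. No motif searched, the E box aside, was in the windows of Tnni1, Csrp3 or Mb. A match is a run of letters, and binding was not measured here.

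Between the tissues the 10 genes split in 2 directions. Tnni1, Tnnt1 and Myh7 were lower in the heart than in the gastrocnemius of the same animal, in 12 of 12 animals each. Csrp3, Myoz2, Myl2, Tnnc1, Mb and Myl3 were higher in heart, and Tpm3 depended on the probe set. Averaged over genotypes, 9 of the 10 genes passed in limma, 3 lower and 6 higher, and 13 of the 17 probe sets. To pass, the p-value adjusted over all 31070 probe sets by Benjamini-Hochberg had to lie below 0.05. Over all genes 31.1% passed, 19.5% lower and 11.5% higher, and 28.1% of all probe sets passed. The median difference of the 10 genes was 0.54, beside -0.12 over all genes. In whole tissue, fewer cells of a type and less RNA per cell cannot be told apart.

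**Figure D1:**
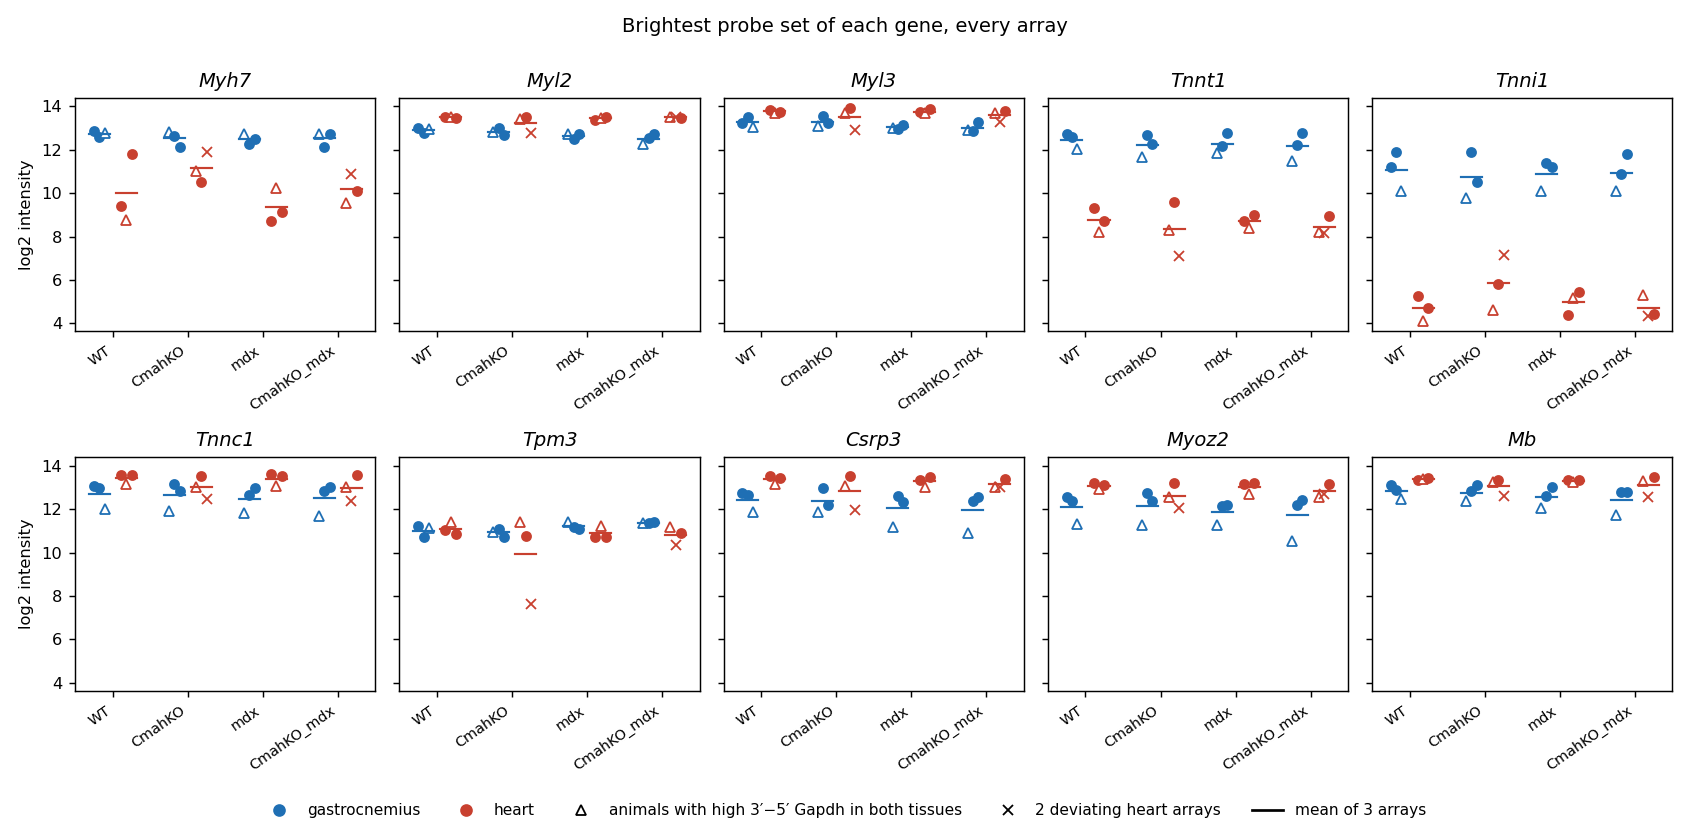
Log2 intensity of the brightest probe set of each of the 10 genes (vertical axis) by genotype (horizontal axis) in gastrocnemius (blue) and heart (red). Each point is 1 array, triangles are the 4 animals with high Gapdh differences, crosses the 2 deviating hearts and lines the mean of 3 arrays. Tnni1, Tnnt1 and Myh7 are lower in every heart than in every gastrocnemius, and the other 7 genes lie close together in both tissues.

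Tnni1 encodes the troponin I of slow fibres. Its lowest, median and highest values were 9.78, 11.03 and 11.92 in gastrocnemius and 4.13, 4.93 and 7.16 in heart. The tissues did not overlap, and the median heart value lay close to the 40th percentile of all heart values (4.78), the level used as the filter on dim probe sets. The difference was -5.84 ± 0.29 (SE; limma's Benjamini-Hochberg adjusted p = 1.18e-12), and with the 6 hearts at or below the filter level set to it, the mean was at least 50.8-fold lower in heart. The highest heart, at 7.16, was one of the deviating arrays, and the next was 5.82 in Cmah KO replicate 2.

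Tnnt1, the troponin T of slow fibres, read 11.48, 12.24 and 12.77 (lowest, median, highest) in gastrocnemius. In heart it read 7.12, 8.55 and 9.59. The tissues again did not overlap, and here every heart lay well above the filter level. The difference was -3.72 ± 0.22 (SE; limma's adjusted p = 2.38e-11), or 13.2-fold.

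Myh7, the slow myosin heavy chain, read 12.87, 12.57 and 12.77 in the 3 wild type gastrocnemius samples, 12.82, 12.62 and 12.12 in Cmah KO, 12.72, 12.26 and 12.48 in mdx and 12.71, 12.15 and 12.71 in Cmah KO mdx. In heart it read 9.39, 8.77 and 11.82 in wild type, 11.04, 10.50 and 11.91 in Cmah KO, 8.72, 10.23 and 9.14 in mdx and 9.54, 10.87 and 10.11 in Cmah KO mdx. The gastrocnemius samples lay within a range of less than 1 log2 unit, whereas the hearts spread widely, with wild type replicate 3 and the deviating Cmah KO replicate 3 highest. The difference between the tissues was -2.40 ± 0.26 (SE; limma's adjusted p = 3.43e-07), a 5.27-fold lower intensity in heart, and no heart reached the lowest gastrocnemius. By genotype it was -2.74 in wild type, -1.37 in Cmah KO, -3.12 in mdx and -2.35 in Cmah KO mdx. Limma's adjusted p was 0.104 in Cmah KO, whose hearts include a deviating array, and 0.0016, 0.000388 and 0.0056 in the other 3 genotypes. Of the 10 genes 3, 2, 3 and 4 passed within wild type, Cmah KO, mdx and Cmah KO mdx, where 8.38%, 11.6%, 8.27% and 11.5% of all genes did. A further 2 probe sets, annotated to Myh7 and Myh6 together and so not counted as members, went the other way, with the brighter one at 10.23 to 11.52 in gastrocnemius and 12.80 to 13.57 in heart. Myh6, the alpha heavy chain, itself had medians of 6.45 in gastrocnemius and 13.14 in heart.

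**Figure D2:**
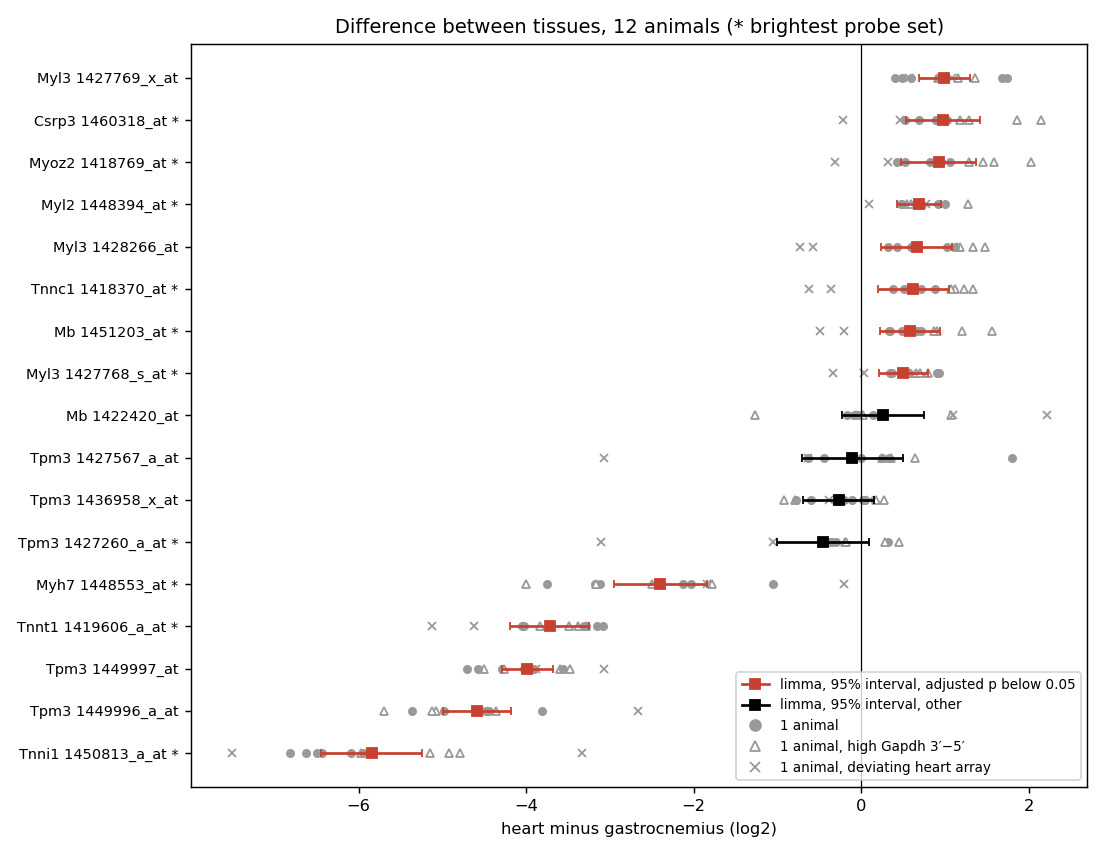
Heart minus gastrocnemius difference in log2 intensity (horizontal axis) for the 17 probe sets (vertical axis). Squares with bars are limma estimates with 95% intervals, red where the adjusted p lies below 0.05, and grey symbols are the 12 animals, with triangles for high Gapdh differences and crosses for deviating hearts. Tnni1, Tnnt1, Myh7 and 2 Tpm3 probe sets lie far below 0, and Csrp3, Myoz2, Myl2, Tnnc1, Mb and Myl3 lie above 0.

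The 6 genes that were higher in heart were bright in both tissues, and their hearts read close to the top of the scale, since the brightest probe set of a heart array reached 13.71 to 14.05. Differences near that limit can be understated, so their sizes were not ranked against those of the genes lower in heart. Csrp3, the muscle LIM protein, had a lowest, median and highest value of 10.90, 12.37 and 13.01 in gastrocnemius and 11.99, 13.27 and 13.54 in heart, a difference of 0.98 ± 0.21 (SE; limma's adjusted p = 0.0013). Myoz2, a calcineurin-binding protein of the Z disc, differed by 0.92 ± 0.22 (adjusted p = 0.0026 by limma). Both were higher in heart in 11 of 12 animals, the exception being Cmah KO animal 10, whose heart array deviated. The ranges of the tissues overlapped for both genes.

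Myl2, the regulatory light chain shared by slow fibres and ventricle, differed by 0.69 ± 0.13 (SE; limma's adjusted p = 0.000277) and was higher in heart in 12 of 12 animals. Its hearts were tightly grouped: 11 of 12 lay between 13.38 and 13.53, and the deviating Cmah KO replicate 3 read 12.78. The lowest gastrocnemius sample read 12.25. Myl3, the essential light chain, differed by 0.50 ± 0.14 at its brightest probe set, by 0.99 ± 0.15 and by 0.66 ± 0.20 at the other 2 (limma's adjusted p = 0.0097, 2.16e-05 and 0.018). All 3 Myl3 probe sets therefore passed in the same direction.

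Tnnc1, the troponin C of both muscles, differed by 0.62 ± 0.20 (SE) with limma's adjusted p at 0.027, and Mb, myoglobin, by 0.58 ± 0.17 with adjusted p at 0.014. Each was higher in heart in 10 of 12 animals, and the 2 exceptions in each case were the animals with deviating hearts. The second Mb probe set had medians of 4.57 in gastrocnemius and 4.77 in heart, near the filter level in both tissues, and did not pass.

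The differences of Csrp3, Myoz2, Tnnc1 and Mb had means of 1.62, 1.59, 1.19 and 1.14 in the 4 animals with high Gapdh differences. In the 6 animals that stood apart in neither way they were smaller (0.84, 0.79, 0.62 and 0.52). Myl2 (0.78 and 0.71) and the brightest Myl3 probe set (0.68 and 0.60) differed little between the 4 and the 6. Of the other Myl3 probe sets, 1428266_at was larger in the 4 animals too (1.28 and 0.69), and 1427769_x_at read 1.11 and 0.97. The gastrocnemius arrays of the 4 lay below all 8 others for Myoz2 (means of 11.11 and 12.39), Csrp3 (11.47 and 12.57), Tnnc1 (11.87 and 12.95), Mb (12.18 and 12.90), Tnnt1 (11.77 and 12.53) and Tnni1 (10.02 and 11.35). The Myl3 probe set 1428266_at lay below all 8 others too (11.75 and 12.67). Myh7, Myl2 and the brightest probe sets of Myl3 and Tpm3 overlapped in gastrocnemius. Myh7 was nevertheless higher in the 4 (means of 12.76 and 12.47), in every genotype against the mean of the others. The Tpm3 probe set 1436958_x_at lay above all 8 others (11.19 and 10.22). In their hearts Myoz2, Csrp3, Tnnc1 and Tnnt1 also lay below the 6 hearts that stood apart in neither way. The gap was smaller there for Myoz2 (12.70 and 13.18), Csrp3 (13.09 and 13.47) and Tnnc1 (13.06 and 13.57). The brightest Myl3 probe set lay below those 6 hearts as well (13.70 and 13.82), and the brightest Tpm3 probe set above them (11.31 and 10.85). How many of all genes separate these 4 animals in this way was not counted. The separation is therefore not shown to be particular to the 10 genes. Without these 4 animals only 4 of the 10 genes passed: Tnni1, Tnnt1, Myh7 and Myl2. The other 5 then differed by 0.66 (Csrp3, limma's adjusted p = 0.0604), 0.59 (Myoz2, 0.0608), 0.42 (Myl3, 0.181), 0.34 (Tnnc1, 0.325) and 0.30 (Mb, 0.342). Without these 4 animals and without the 2 deviating hearts, 9 of 10 passed again. In the 6 animals that remain with both tissues, Csrp3 was higher in heart by 0.52 to 1.03, Myoz2 by 0.43 to 1.06, Tnnc1 by 0.38 to 0.88, Myl3 by 0.34 to 0.93, Mb by 0.33 to 0.72 and Myl2 by 0.47 to 1.00, in 6 of 6 animals for each gene. Tnnc1 also missed the threshold without the animal block (adjusted p = 0.0598) and in each of 5 fits that left out 1 array (0.0507 to 0.0594): gastrocnemius wild type replicate 3, Cmah KO replicate 1, mdx replicate 1 and Cmah KO mdx replicate 1, and heart Cmah KO mdx replicate 3. The part of RNA integrity in these differences was not tested further.

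Tpm3 gave 2 patterns among its 5 probe sets. Probe set 1449996_a_at read 10.63, 10.99 and 11.55 (lowest, median, highest) in gastrocnemius and 5.51, 6.39 and 8.22 in heart. It was lower in heart by 4.59 ± 0.19 (SE; limma's adjusted p = 1.01e-13). Probe set 1449997_at followed it, with medians of 10.36 and 6.33 and a difference of -3.99 ± 0.15 (adjusted p = 1.82e-14 by limma). These are the patterns of Tnni1 and Tnnt1, without overlap of the tissues and lower in heart in 12 of 12 animals. The brightest probe set, 1427260_a_at, had medians of 11.16 and 10.90 and differed by -0.45 ± 0.26 (SE), with limma's adjusted p at 0.219. Probe sets 1436958_x_at and 1427567_a_at differed by -0.27 ± 0.20 and -0.10 ± 0.29 and did not pass. The estimate of the brightest probe set leaned on the deviating Cmah KO heart, which read 7.64 against 10.37 to 11.42 in the other 11 hearts, and was -0.11 without the 2 deviating hearts. It passed without heart Cmah KO replicate 1 (-0.64, limma's adjusted p = 0.0478), and the mean of all 5 probe sets passed at -1.88 (adjusted p = 2.55e-11 by limma). The files do not say which Tpm3 transcripts each probe set detects, nor from which of the 2 starts shown above they come.

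**Figure D3:**
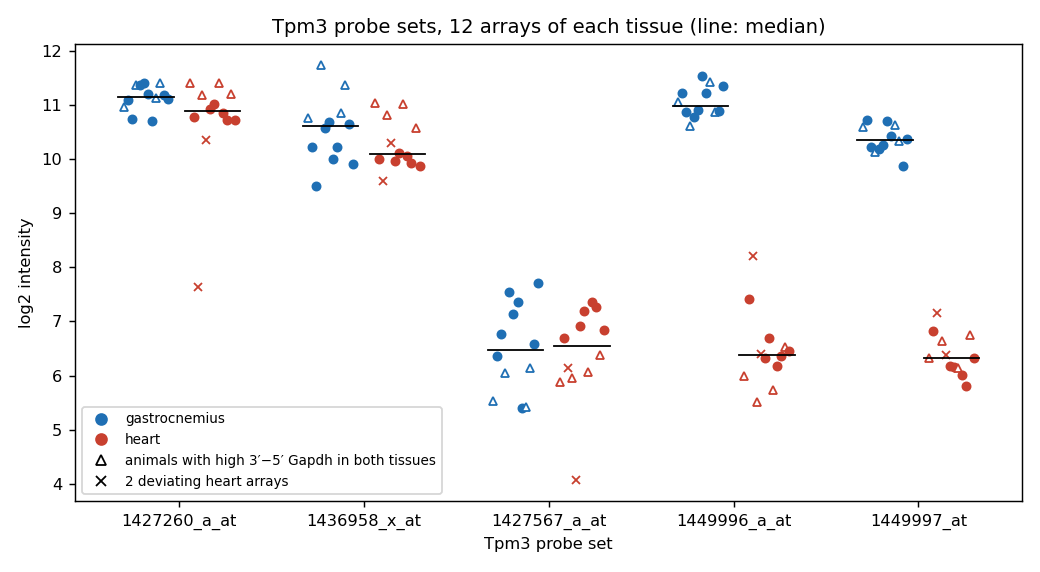
Log2 intensity (vertical axis) of the 5 Tpm3 probe sets (horizontal axis) in 12 gastrocnemius (blue) and 12 heart (red) arrays, with lines at the medians, triangles for the 4 animals with high Gapdh differences and crosses for the 2 deviating hearts. The probe sets 1449996_a_at and 1449997_at separate the tissues without overlap, and the other 3 do not.

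Markers listed for the other muscle type gave signal in both tissues. Some were bright in both, so the list means do not measure RNA of the other tissue alone. In gastrocnemius, 8 of 13 cardiac markers had a mean above the filter level of that tissue. Actc1, Myl4 and Tnnt2 had gastrocnemius medians of 12.78, 11.05 and 10.35, whereas Nkx2-5 had 3.51. In heart, the mean of the 14 fast fibre contractile genes ran from 6.16 to 10.44 between arrays, against 13.16 to 13.50 in gastrocnemius, and the mean of 10 skeletal markers ran from 5.51 to 8.70. Of these 10, the median heart value was highest for Ckm (10.74), Mylpf (10.66), Tnnt3 (10.38) and Acta1 (10.31) and lowest for the regulator Myog (3.57), and it was 5.26 for Myod1 and 5.35 for Myf6. Among the hearts that did not deviate, wild type replicate 1 had the highest fast fibre mean (10.44) and read 9.30 for Tnnt1 and 5.27 for Tnni1. Cmah KO mdx replicate 3 had the lowest (6.78) and read 8.95 for Tnnt1 and 4.43 for Tnni1. In gastrocnemius, the mean of 13 cardiac markers was 8.05 in Cmah KO replicate 1 and 7.55 in wild type replicate 3, both among the 4 animals with high Gapdh differences, and 5.23 to 6.91 in the other 10 arrays. Myh7 read 12.82 and 12.77 in those 2 arrays, within the range of the others. Which cells these marker values come from, and their part in the tissue differences, was not tested.

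In gastrocnemius, none of the 10 genes passed the test for dystrophin loss. Averaged over Cmah states, 0 of 10 genes and 0 of 17 probe sets passed limma's test, where 0.857% of all 29518 probe sets tested and 1.2% of all genes did, and 1 of the 17 had an unadjusted p below 0.05. In mdx against wild type 0.0169% of probe sets and 0.0302% of genes passed by limma, and in Cmah KO mdx against Cmah KO 0.112% and 0.189% did, again with 0 members called and 0 at an unadjusted p below 0.05. Of the 10 genes 8 had lower means with dystrophin loss and 2 higher, with a median of -0.21 beside 0.02 over all genes. The 95% intervals were wide, from -1.20 to 0.41 for Csrp3, -1.18 to 0.55 for Myoz2 and -0.98 to 1.01 for Tnni1.

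The estimates for the myosin genes were small at their brightest probe sets. These probe sets read not far below the top of the scale, since the brightest probe set of a gastrocnemius array reached 13.70 to 14.22. Differences there can be understated. Myh7 differed by -0.13 ± 0.20 (SE) with an interval of -0.56 to 0.31. Myl2 differed by -0.29 ± 0.17, from a median of 12.89 in the 6 dystrophin-positive arrays to 12.64 in the 6 deficient ones, and the lowest positive array (12.68) lay below the highest deficient one (12.74). Myl3 differed by -0.25 ± 0.18 at its brightest probe set. Its probe set 1427769_x_at read 10.89, 11.18 and 10.85 in wild type, 10.87, 11.11 and 10.88 in Cmah KO, 10.66, 9.84 and 10.66 in mdx and 10.58, 9.85 and 10.59 in Cmah KO mdx. All 6 deficient samples lay below all 6 others there, with mdx replicate 2 and Cmah KO mdx replicate 2 lowest. The difference of -0.60 ± 0.22 (SE) had limma's unadjusted p at 0.019 and adjusted p at 0.331, and did not pass. This was the only one of the 17 probe sets without overlap between the 6 and 6 arrays. How many of all probe sets separate in this way was not counted, so the separation is not shown to be unusual.

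The troponins spread more within than between groups. Tnni1 differed by 0.02 ± 0.46 (SE), Tnnt1 by -0.12 ± 0.28 and Tnnc1 by -0.18 ± 0.34. In each of these genes the lowest array of every genotype belonged to an animal with a high Gapdh difference, and Tnni1 in gastrocnemius ran from 9.78 to 11.92 within Cmah KO alone. Csrp3 differed by -0.40 ± 0.37, Myoz2 by -0.31 ± 0.40 and Mb by -0.29 ± 0.26, with overlapping ranges. Tpm3 was again divided: its brightest probe set differed by 0.34 ± 0.17, 1436958_x_at by 0.56 ± 0.33 and 1427567_a_at by 0.72 ± 0.44, whereas 1449996_a_at and 1449997_at, the probe sets low in heart, differed by -0.32 ± 0.18 and -0.36 ± 0.18. None of the 5 passed, with limma's adjusted p between 0.564 and 0.700.

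**Figure D4:**
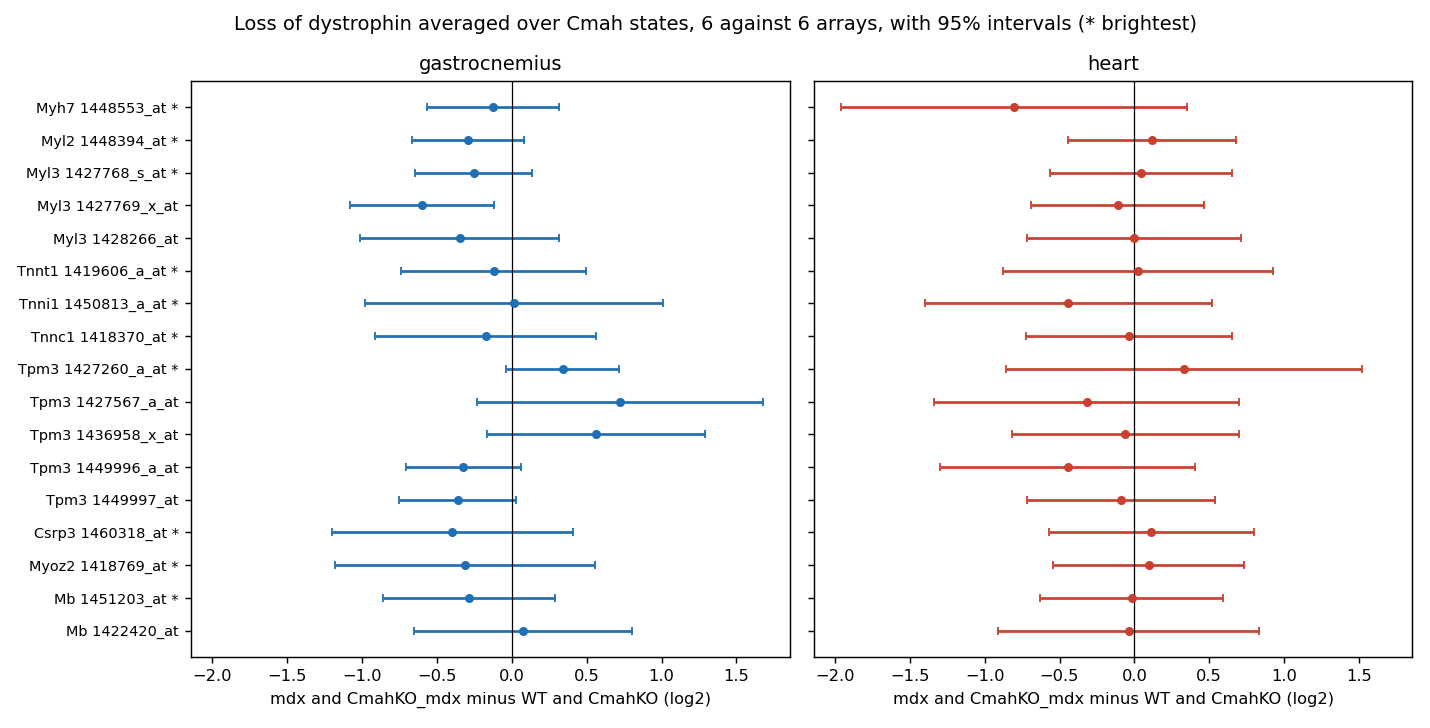
Difference in log2 intensity between dystrophin-deficient and dystrophin-positive arrays, averaged over Cmah states (horizontal axis), for the 17 probe sets (vertical axis) in gastrocnemius (left) and heart (right). Points are limma estimates over 6 against 6 arrays and bars 95% intervals. In gastrocnemius 1 interval, that of Myl3 1427769_x_at, excludes 0, and none does in heart, but none of the adjusted p-values lies below 0.05.

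Markers of regeneration rose in the same muscles. Of 8 such markers, 5 rose with dystrophin loss and none fell, among them the developmental myosins Myh8 (4.35 ± 0.37, SE, limma's adjusted p = 0.000585) and Myh3 (3.70 ± 0.28, adjusted p = 0.000372) and the fusion protein gene Mymk (3.54 ± 0.40, adjusted p = 0.0047). The mean of these 8 markers ran from 6.93 to 7.70 in dystrophin-positive and from 8.95 to 10.20 in deficient gastrocnemius. The mean of 8 macrophage markers ran from 7.81 to 9.27 and from 8.94 to 10.35, and 0 of 7 tested passed, with Cd68 at 2.74 ± 0.59 (adjusted p = 0.0587 by limma). Of 13 cardiac markers 11 were tested, and 1 rose: Myl4, an embryonic and atrial essential light chain (2.46 ± 0.29, SE, limma's adjusted p = 0.0047). Of a list of 22 genes taken as partners of the slow and ventricular programme, 0 of 21 tested passed in either direction, with a median of -0.08. Being listed does not make a gene specific to slow fibres or to the ventricle. The nearest were Ankrd1, a stress-responsive ankyrin repeat protein (2.27 ± 0.56, adjusted p = 0.101 by limma), and Casq2, the cardiac and slow calsequestrin (0.74 ± 0.22, 0.190). Of 32 regulators of the slow programme, 0 of 30 tested passed, with a median of -0.13. Of 14 fast fibre genes 0 passed, with 7 higher and 7 lower.

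The 0 calls among members held in each of the 12 genotype comparisons, 6 per tissue. In gastrocnemius, Cmah KO against wild type gave a median over the 10 genes of -0.07, beside 0.04 over all genes, and Cmah KO mdx against mdx gave -0.06, beside 0.05. In heart the same medians were -0.36, beside -0.43 over all genes, and -0.18, beside -0.10. Without the 2 deviating hearts they were -0.02, beside 0.02, and -0.04, beside -0.04. The background of probe sets called was 0.00339% for Cmah KO mdx against mdx in gastrocnemius, and 0% for Cmah KO against wild type in both tissues, for the interaction in both tissues and for all 6 heart comparisons. In those heart comparisons 103 to 568 of 29421 probe sets had an unadjusted p below 0.05, and 0 of the 17 members did. In gastrocnemius 332 of 29518 probe sets did so for Cmah KO against wild type and 311 for the interaction. All these counts lie below a share of 0.05, which p-values would give if no group differed. Few probe sets of any kind reached this level, so 0 of 17 members says little about the members.

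In heart, Myh7 had the lowest of the 10 estimates for dystrophin loss, at -0.80 ± 0.53 (SE, averaged over Cmah states; interval -1.96 to 0.35), with limma's unadjusted p at 0.157, and at -0.78 ± 0.58 without the 2 deviating hearts. Its genotype means were 9.99 ± 1.61 in wild type, 11.15 ± 0.72 in Cmah KO, 9.36 ± 0.78 in mdx and 10.18 ± 0.66 in Cmah KO mdx (SD, n = 3). Ordered by these means, from mdx through wild type and Cmah KO mdx to Cmah KO, the ranges of neighbouring genotypes overlapped. Those of mdx (highest 10.23) and Cmah KO (lowest 10.50) did not. This pair was picked as the lowest and highest mean, was not tested, and differs in both genes and in strain. How many of all probe sets separate it was not counted, so the separation is not shown to be unusual. The other 9 genes differed in heart by -0.44 (Tnni1) to 0.33 (Tpm3), and both ends rested on the deviating hearts. Without these, Tnni1 differed by -0.03 and Tpm3 by -0.13, its sign turned, and the 9 ran from -0.21 (Tnnt1) to 0.0003 (Mb). The difference of the dystrophin effect between the tissues passed for 0 of 10 genes, where 0.48% of 31070 probe sets and 0.848% of genes passed. For Myh7 it was -0.68 ± 0.53 (heart minus gastrocnemius, limma's adjusted p = 0.875) and for Csrp3 0.51 ± 0.42 (adjusted p = 0.885 by limma).

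Whether the other genes varied with Myh7 from animal to animal in gastrocnemius was read outside the 4 animals with high Gapdh differences, which form a cluster too small for a correlation of its own. Over the other 8 arrays Pearson's r with Myh7 was 0.89 for Tnnt1, 0.80 for Myl2 and 0.78 for Tnnc1 (exact permutation p, two-sided, 0.0088, 0.0186 and 0.0215). After adjustment over the 9 pairs each had p = 0.0645, so that 0 of 9 passed in this exact permutation test. Spearman's rho was 0.64, 0.79 and 0.81, with adjusted exact permutation p between 0.126 and 0.144. Leaving out the 2 arrays farthest from the median of Myh7 gave r of 0.79, 0.82 and 0.81. Csrp3 (0.67), Tnni1 (0.64), Myoz2 (0.64) and Myl3 (0.59) had lower values, and r of Tnni1 was 0.08 without the 2 farthest arrays. Mb (0.17) and the brightest Tpm3 probe set (0.19) had the lowest over 8 arrays, but Mb had 0.67 without the 2 farthest arrays, where Csrp3 had 0.37 and Myl3 0.47. With the mean of each genotype over its 3 arrays subtracted, r over the 8 arrays was 0.59 for this Tpm3 probe set and -0.04 for Mb. It was then 0.83 for Tnnt1, 0.79 for Myl2 and 0.78 for Tnnc1. Each of these means includes the array left out of the 8, so differences between genotypes were not fully removed. The permutation exchanged arrays across genotypes. A correlation within genotypes was therefore not tested.

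The Tpm3 probe sets that are low in heart, 1449996_a_at and 1449997_at, had r of 0.75 and 0.71 with Myh7 over the same 8 arrays. The other 2 Tpm3 probe sets had 0.09 and -0.05. Values with the genotype means subtracted were not taken for these probe sets. Over all 12 arrays, which mix both clusters, 0 of 9 pairs passed in either tissue by permutation. There r was 0.42 for Myl2, but negative for Tnnt1 (-0.09), Tnni1 (-0.18), Csrp3 (-0.24), Myoz2 (-0.35), Tnnc1 (-0.36) and Mb (-0.38), so the positive values above hold only within the 8 arrays, a set chosen after the data were seen. In heart, 6 arrays stood apart in neither way, and there r with Myh7 ran from -0.67 (Myoz2) to 0.69 (Mb) with no common sign. The labels give each of these animals once per tissue, so each point is a separate mouse, but the 8 arrays cross all 4 genotypes with 2 each.

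**Figure D5:**
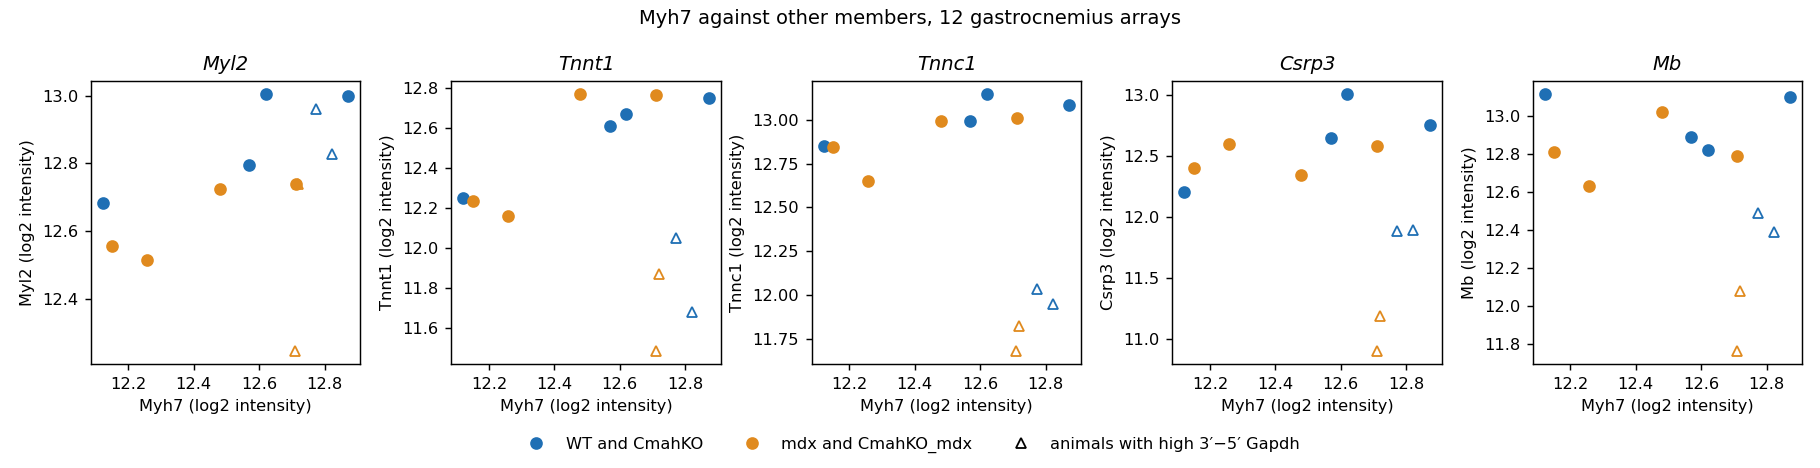
Log2 intensity of Myl2, Tnnt1, Tnnc1, Csrp3 and Mb (vertical axes) against Myh7 (horizontal axes) in 12 gastrocnemius arrays. Blue points are wild type and Cmah KO, orange points mdx and Cmah KO mdx, and open triangles the 4 animals with high Gapdh differences. Among the 8 filled points Myl2, Tnnt1 and Tnnc1 are higher where Myh7 is higher (r of 0.80, 0.89 and 0.78), and for Tnnt1, Tnnc1, Csrp3 and Mb the triangles lie below the filled points.

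Across all genes tested, those most like Myh7 by Pearson's r over 12 arrays were, in gastrocnemius, Cxxc4 (0.85), Tox2 (0.84), Col22a1 (0.81), Acy3 (0.81) and 4930578M01Rik (0.80), among 13214 genes compared. In heart they were Lman1l (0.90), Itga5 (0.88), Stx1a (0.85), Hs3st3a1 (0.84) and Dlgap4 (0.84), among 13091. Over the 10 hearts without the deviating arrays these 5 had r of 0.87, 0.86, 0.78, 0.82 and 0.79, and the ranking was not repeated. Lman1l had a median of 4.62 in heart, below the filter level. None of the other 9 members was among the 5 in either tissue. The lists share no gene, and all points in one tissue share the Gapdh differences described above.

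Between the tissues the related lists also split. Of the 22 partner genes, 21 were tested, and 15 passed: 7 were higher in heart and 8 lower, with a median of -0.13. The 3 with the largest fitted differences were lower in heart: Myoz3 (-5.87 ± 0.32, SE, limma's adjusted p = 4.12e-12), which encodes another calsarcin, Mybpc1, the slow skeletal myosin-binding protein C (-5.86 ± 0.32, adjusted p = 5.27e-12), and Ankrd2, an ankyrin repeat protein of slow skeletal fibres (-5.59 ± 0.19, adjusted p = 1.06e-14). Myoz3 and Ankrd2 had heart medians of 5.48 and 5.68, not far above the filter level, so their order is not exact. Close behind, and higher in heart, were Pln, phospholamban, the inhibitor of the calcium pump (5.40 ± 0.60, SE), and Fhl2, a LIM domain protein of the heart (5.31 ± 0.25), both named after their values were seen. Of the 32 regulators 31 were tested, 5 were higher and 18 lower, with the skeletal transcription factor Tbx15 (-5.12 ± 0.21, SE) and the cofactor Vgll2 (-4.92 ± 0.21) lowest and the cardiac factor Gata4 highest (4.71 ± 0.20), each with limma's adjusted p below that of Mybpc1. All 14 fast fibre genes were lower in heart, with a median of -4.13, led by Myoz1 (-6.15 ± 0.35, SE, limma's adjusted p = 9.62e-12).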

How the data were processed

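The deposited values are linear intensity values per probe set, which the authors made with GCOS and RMA, per the submitters' processing notes (no version given). Per the labels' protocols, the NuGEN Ovation system amplified 25 ng of RNA for each hybridisation. Array medians were 41.9 to 50.7. The log2 of each value was taken here with no further scaling. Within a tissue, probe sets with at least 3 of 12 arrays above the 40th percentile were tested, which kept all 17 member probe sets. A mean per group was fitted with limma 3.58.1 (R 4.3.3; lmFit, eBayes, two-sided) after checks on simulated data, with Benjamini-Hochberg adjustment over all probe sets. Heart and gastrocnemius were compared over the 24 arrays, treating the mouse as a random block by duplicateCorrelation (consensus correlation 0.217), since the descriptions give each animal's number in both tissues. The replicate numbers of the labels do not follow the animals between tissues. The number of arrays limits the precision. No label says how the animals were chosen within a group. The limma p-values set differences of group means against the spread within groups, which includes that of the arrays that stood apart. Named genes were the 10 members, up to 3 called genes with the largest difference per list (where none was called, the 2 lowest p, reported as values) and the 5 genes most like Myh7. The members and lists were chosen with earlier results of these data known. Array annotation names no assembly, and start windows are from RefSeq, GRCm38.p6.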

Additional observations from a re-analysis of the deposited data

How the results depend on the processing

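The counts of members called between the tissues stayed at 8 to 10 of 10 under each setting tried except one: without the 4 animals with high Gapdh differences it was 4, against 9 in the fit described. Leaving out 1 array gave 8 to 10, and 9 passed without the 2 deviating hearts, with and without the 4 animals. The replicate numbers of the labels as a replicate block gave 8, with Tnnc1 lost (adjusted p = 0.068 by limma), and 0 members within either tissue. These numbers do not pair the arrays: deviations of same-numbered arrays from their group means correlated at -0.58 to 0.61 in gastrocnemius and -0.42 to 0.64 in heart, and 3 and 4 of 12 arrays correlated best with an array of their own number. Within tissues, 0 members were called in 248 combinations of comparison and setting, and the smallest adjusted p by limma was 0.119. Of the 4114 member tests in them, 65 had limma's unadjusted p below 0.05. In the fit described, 0% of all probe sets passed in every heart comparison, so 0 members there matches the share over all probe sets. For dystrophin loss in gastrocnemius the sign was not stable for 3 genes: leaving out 1 array gave -0.22 to 0.31 for Tnni1, -0.27 to 0.0487 for Tnnt1 and -0.35 to 0.0329 for Tnnc1, and Tnni1 was -0.0516 without the 4 animals. Counts over all probe sets moved more: for dystrophin loss averaged over Cmah states in gastrocnemius 70 to 1055 (253 in the fit described), for mdx against wild type 0 to 26 (5), for Cmah KO mdx against Cmah KO 2 to 539 (33), for heart mdx against wild type 0 to 133 (0), for heart Cmah KO mdx against mdx 0 to 19 (0), for the tissues 4940 to 13042 (8736) and for the difference of the dystrophin effect between tissues 20 to 328 (149). Settings with the 4 animals or the 2 hearts set apart were chosen after seeing the data.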

Other observations

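Of 5 endothelial markers, 2 were higher in heart than in gastrocnemius by limma's test and none lower, among them Kdr, the main receptor for vascular endothelial growth factor (1.35 ± 0.21, SE, adjusted p = 4.11e-05). Tendon and fibroblast markers went the other way: 6 of 8 were lower in heart, among them tenomodulin, Tnmd (-4.68 ± 0.19, SE, limma's adjusted p = 7.19e-14). Adipocyte markers passed as lower in heart for 3 of 3 tested, nerve and Schwann cell markers for 3 of 3 and macrophage markers for 2 of 7. Of the smooth muscle markers 1 of 5 was higher in heart, and of the blood markers 1 of 2. Over all genes 11.5% passed as higher and 19.5% as lower, so the counts of the macrophage, smooth muscle and blood markers lie within about 1 gene of these shares. With dystrophin loss in gastrocnemius, 0 genes of these 7 lists passed by limma, with all 8 tendon and fibroblast markers higher in the mean (median 0.46).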
